A study of Mus musculus with 8 samples.

Results

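Sterol synthesis and sterol regulation were followed through 29 genes in bone marrow B cells treated with estrogen under hypoxia. The genes were taken by symbol from a table of read counts for 46983 Ensembl genes. They hold 19 enzymes of the pathway (7 of the mevalonate arm and 12 of the squalene and sterol arm), 5 genes of sterol regulatory element-binding protein (SREBP) control and 5 genes of sterol transport and the liver X receptor (LXR) axis. All 29 had enough reads to be tested, among 15175 genes tested in all.

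Messenger RNA had been sequenced in 4 Estrogen and 4 Vehicle libraries of wild-type mouse B cells, all kept under hypoxia. Per the study's methods, the cells had been purified from marrow with magnetic beads and then cultured. There was no library without hypoxia, so each difference below is that of estrogen on a hypoxic background. The labels give no dose, time, age or sex, while the paper states a micromolar estrogen dose for its RNA-seq of treated B cells. It is not stated whether replicate libraries derive from different mice or culture wells. The spread behind each p-value is therefore that of these libraries, and part of it could be technical in origin.

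Cells build cholesterol from acetyl-CoA in a long chain of enzymes. The mevalonate arm makes isoprenoid units, which also feed ubiquinone, dolichol and protein prenylation, and the squalene and sterol arm folds them into lanosterol and trims that to cholesterol. When membrane sterol is low, SCAP escorts SREBP from the endoplasmic reticulum to the Golgi, where SREBP is cut and freed to switch on the enzyme genes, while the INSIG proteins hold it back when sterol is high. LXR, which senses oxysterols, works the other way and drives genes that export cholesterol. Several enzymes of the pathway use oxygen or are controlled by hypoxia in other cells, and estrogen receptors change sterol metabolism in liver.

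Promoter sequences were available for 24 of the 29 genes (RefSeq, GRCm38.p6, 250 bases before to 50 after the start). Of these, 3 were picked by name and are shown as examples. Each carries at least 1 of 2 motifs known from SREBP targets, as most of the 24 do. Capitals mark these motifs on either strand: the core of the sterol response element bound by SREBP (TCACNCCA) and the CCAAT box bound by NF-Y (CCAAT, which reads ATTGG on the other strand). Each sequence ends at the last base before the first annotated start. Hmgcs1, which encodes the enzyme that makes HMG-CoA, is at chr13:119690101-119690350, plus strand. Srebf2, the gene of the main SREBP of sterol synthesis, is at chr15:82147019-82147180, plus strand. Insig1, an inhibitor of SREBP that is itself an SREBP target, is at chr5:28071162-28071362, plus strand.
Hmgcs1: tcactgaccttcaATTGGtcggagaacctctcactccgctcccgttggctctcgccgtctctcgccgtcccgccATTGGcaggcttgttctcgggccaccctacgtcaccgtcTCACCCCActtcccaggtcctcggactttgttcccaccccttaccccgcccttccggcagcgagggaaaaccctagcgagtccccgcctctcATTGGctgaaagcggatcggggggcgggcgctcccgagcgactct
Srebf2: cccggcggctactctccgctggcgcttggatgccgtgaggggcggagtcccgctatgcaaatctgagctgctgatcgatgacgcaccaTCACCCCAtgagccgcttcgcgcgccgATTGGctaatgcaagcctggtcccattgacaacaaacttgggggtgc
Insig1: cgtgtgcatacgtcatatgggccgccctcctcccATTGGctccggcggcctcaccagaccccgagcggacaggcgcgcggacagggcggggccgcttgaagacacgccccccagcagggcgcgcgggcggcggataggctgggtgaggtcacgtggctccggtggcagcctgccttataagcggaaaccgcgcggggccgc

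A gene with several promoter windows was counted once if any of them held a match. The CCAAT box was in 20 of the 24 genes, against 41.1% of 27025 genes with a window. The GC box (GGGCGG) was in 22 of 24, against 38.2%. The sterol response element core was in 3 (Hmgcs1, Msmo1 and Srebf2), against 4.97% of genes, and began 137 bases before the RefSeq start in Hmgcs1. An estrogen response element half-site (AGGTCA) was in 3 of 24 (Dhcr7, Hmgcs1 and Insig1), against 18.1%, and the full palindromic element was in 0, against 0.0555%. Of the hypoxia response cores, ACGTG was in 6 of 24, against 21.8%, and GCGTG in 14, against 35.2%. The E-box CACGTG, which contains ACGTG on both strands, was in 6, against 8.09%. The 27025 genes were not limited to those with reads in these libraries, while all 24 had enough reads to be tested, so the shares are not like for like. These matches describe the letters in the window and say nothing of binding in these cells.

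Each library held between 30181834 and 39088597 reads in the table, so that 3 reads correspond to 0.078 to 0.102 CPM (reads per 1000000, scaled by TMM, a factor that evens out library composition). Vehicle 3 stood apart, with 9842 reads of 4 Y-linked genes and 2.39 CPM of Xist. The other 7 libraries had 0 to 34 such reads and 470 to 1441 CPM of Xist. Xist is expressed in females, so Vehicle 3 had the pattern of male cells and the other 7 that of female cells. Vehicle 3 therefore did not come from the same mouse as the other Vehicle libraries, and the effect of sex on the values was not tested. The B lineage markers were high in every library, with a summed level of 7706 to 12544 CPM in Estrogen and 9393 to 14389.9 CPM in Vehicle.

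None of the 29 sterol genes passed the test for a difference between Estrogen and Vehicle. By edgeR's quasi-likelihood test, 0 of 29 passed an adjusted p of 0.05, where 0 of the 15175 genes tested (0%) passed. At an unadjusted p under 0.05 the count was again 0 of 29, against 3.53% of all genes tested, which is 535 genes (2.27% higher and 1.26% lower in Estrogen). Of the whole table, DESeq2 called 1 gene at an adjusted p of 0.05 (Cd8b1, of a T cell co-receptor) and limma-voom called 0, and neither called one of the 29. The Estrogen and Vehicle libraries overlapped for all 29 genes, and 1.67% of all genes tested had groups that did not overlap. The smallest p among the 29 was 0.114, with an adjusted p of 0.860 (edgeR).

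The precision bounds how large a difference these libraries allow. For all 29 genes the 95% interval of the difference lay within 2-fold in either direction, as it did for 75.5% of all genes tested and for 93.6% of those with a mean of at least 10 CPM. For 24 of 29 it lay within 1.5-fold (82.8%), against 51.4% of all genes and 76.1% of those above 10 CPM. The other 5 were Mvk, Fdps, Tm7sf2, Abca1 and Mylip. Without Vehicle 3 the counts were 28 and 24 of 29, and over all libraries left out in turn they ranged from 27 to 29 and from 24 to 25.

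Fitted log2 differences (Estrogen minus Vehicle) were above 0 for 12 genes and below 0 for 17, with a median of -0.02 over the 29, against -0.01 over all genes tested. They ranged from -0.35 for Mvk to 0.27 for Tm7sf2, and 18 of 29 were within 0.1 of 0 (62.1%, against 36.9% of all genes tested and 46.5% of those above 10 CPM). With libraries scaled by their totals alone, 19 of 29 were above 0 and the median of all genes moved to 0.05, so no direction can be read from these counts. Without Vehicle 3, 16 of 29 were above 0 and the median was 0.01.

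**Figure D1:**
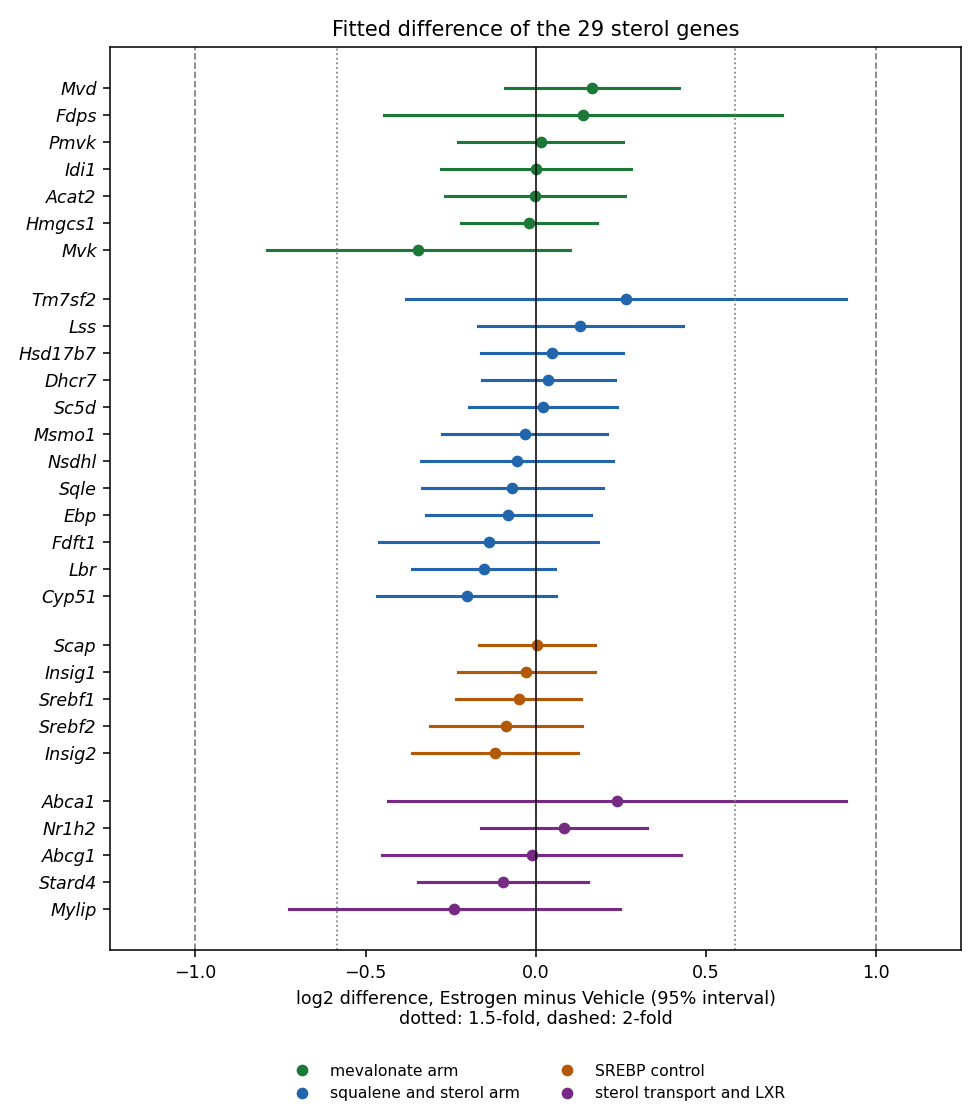
Fitted log2 difference, Estrogen minus Vehicle, of the 29 sterol genes (points, x axis) with 95% intervals (bars), grouped by role; dotted and dashed lines mark 1.5-fold and 2-fold. Every interval includes 0 and stays inside the 2-fold lines, and only the intervals of Mvk, Fdps, Tm7sf2, Abca1 and Mylip cross a 1.5-fold line.

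The mevalonate arm had nearly the same mean level in the groups. Its 7 enzymes summed to 253.7, 255.3, 248.5 and 248.2 CPM in Estrogen 1 to 4, against 256.4, 244.5, 284.0 and 225.3 CPM in Vehicle 1 to 4. All 4 Estrogen libraries lay between the highest and lowest Vehicle libraries. Means were 251 ± 3.62 CPM in Estrogen and 253 ± 24.6 CPM in Vehicle (SD, n = 4 each).

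Hmgcs1 is on chromosome 13 (GRCm38, GENCODE M21, 119690379 to 119708260, plus strand) and was the most abundant enzyme of this arm. It had 117, 121, 123 and 126 CPM in Estrogen, against 125, 118, 140 and 110 CPM in Vehicle. All 4 Estrogen libraries fell inside the Vehicle range, with a log2 difference of -0.02 (95% interval -0.22 to 0.18). Acat2, which condenses acetyl-CoA at the entry of the pathway, had a log2 difference of 0.00 (-0.27 to 0.26), but 39.1% of its 50-base windows also occur in transcripts of other genes, mostly Acat3, which had 1 to 10 reads a library. Idi1, the isomerase of isopentenyl diphosphate, stood at 32.5 ± 2.79 CPM in Estrogen and 32.5 ± 4.72 CPM in Vehicle (SD, n = 4 each), and 25.3% of its windows are shared, mostly with Gm13502. In Hmgcs1 the share was 11.6%, mostly with Gm48342 on the opposite strand.

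Mvk (mevalonate kinase; chromosome 5, 114444269 to 114460591, plus strand) had the most negative fitted difference of the 29. It had 13.5, 11.8, 13.6 and 7.95 CPM in Estrogen, against 16.4, 15.5, 16.4 and 11.1 CPM in Vehicle. Replicate 4 was the lowest library of each group, and the other 3 Estrogen libraries lay above Vehicle 4 and below the other 3 Vehicle libraries. The log2 difference was -0.35 (SE 0.20, interval -0.79 to 0.10, unadjusted p = 0.115 and adjusted p = 0.860 by edgeR). Leaving out Vehicle 4 gave -0.46 with an unadjusted p of 0.0386 and an adjusted p of 0.354 by edgeR.

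Mvd, which decarboxylates mevalonate diphosphate (chromosome 8, 122433601 to 122443422, minus strand), had a fitted difference above 0. It had 29.5, 33.8, 29.2 and 27.2 CPM in Estrogen, against 26.3, 24.6, 31.1 and 24.8 CPM in Vehicle. Vehicle 3 was above 3 of the 4 Estrogen libraries, while the other 3 Vehicle libraries were below all of them. The log2 difference was 0.16 (interval -0.09 to 0.42, adjusted p = 0.860 by edgeR), and 0.26 without Vehicle 3, with an unadjusted p of 0.0477 and an adjusted p of 0.968 by edgeR. Pmvk, the phosphomevalonate kinase between Mvk and Mvd, had a log2 difference of 0.01 (-0.23 to 0.26). The intervals of these 3 neighbouring steps all included 0, so no direction can be read for any of them.

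Fdps (farnesyl diphosphate synthase, the branch point to isoprenoids) had the lowest level of the 29 per length, with 0.463 CPM per 1000 exon bases in Estrogen and 0.420 in Vehicle. It had 1.95 ± 0.496 CPM in Estrogen and 1.77 ± 0.347 CPM in Vehicle (SD, n = 4 each). Its count is uncertain: 26.2% of its 50-base windows are shared, mostly with Gm43738, an annotated gene on the same strand that overlaps 1124 of its exon bases and had 0 reads in all libraries.

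The squalene and sterol arm summed to 712, 664, 687 and 680 CPM in Estrogen, against 794, 721, 742 and 650 CPM in Vehicle. Vehicle 4 was the lowest library and the other 3 Vehicle libraries were above all Estrogen libraries. The means were 686 ± 19.8 CPM in Estrogen and 727 ± 59.7 CPM in Vehicle (SD, n = 4 each). Of its 12 genes, 5 had a fitted difference above 0 and 7 below, with a median log2 difference of -0.04.

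Cyp51, the lanosterol demethylase (chromosome 5, 4081145 to 4104746, minus strand), had the smallest p of the 29. It had 85.4, 71.7, 75.9 and 75.5 CPM in Estrogen, against 102.9, 89.6, 91.5 and 71.2 CPM in Vehicle. Vehicle 1 to 3 were above all 4 Estrogen libraries and Vehicle 4 was below them all. The log2 difference was -0.20 (SE 0.12, interval -0.47 to 0.06, adjusted p = 0.860 by edgeR). Without Vehicle 4 it was -0.29, with an unadjusted p of 0.0133 and an adjusted p of 0.354 by edgeR.

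Lbr and Tm7sf2 encode proteins that carry out the same step, the reduction of the sterol double bond at carbon 14, and Lbr is also the lamin B receptor of the inner nuclear membrane. Lbr (chromosome 1, 181815335 to 181843046, minus strand) had 254, 221, 242 and 227 CPM in Estrogen, against 292, 268, 241 and 249 CPM in Vehicle. Its log2 difference was -0.15 (-0.36 to 0.06). Tm7sf2 (chromosome 19, 6062821 to 6068373, minus strand) had 8.77, 17.8, 13.4 and 15.7 CPM in Estrogen, against 7.07, 9.25, 13.9 and 16.0 CPM in Vehicle. Its log2 difference was 0.27 with a wide interval (-0.38 to 0.91). Tm7sf2 varied 2.51-fold over the 8 libraries and Lbr 1.32-fold, and the 2 libraries lowest in Lbr, Estrogen 2 and Estrogen 4, were among the 3 highest in Tm7sf2. Per 1000 exon bases, Lbr was at 49.6 CPM in Estrogen and 55.1 CPM in Vehicle, and Tm7sf2 at 3.15 CPM in Estrogen and 2.63 CPM in Vehicle. Tm7sf2 overlaps 532 exon bases of Vps51 on the same strand, and 9.87% of its windows are shared.

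Fdft1 (squalene synthase, the first step committed to sterols; chromosome 14, 63145150 to 63179578, minus strand) had 36.7, 31.6, 34.8 and 29.6 CPM in Estrogen, against 42.6, 34.1, 41.3 and 28.1 CPM in Vehicle. The log2 difference was -0.14 (-0.46 to 0.18). It overlaps Ctsb, a lysosomal protease gene on the opposite strand that had 1028 to 1899 CPM, and 26.5% of its windows are shared. Because the strand setting of the counting is not given in the sources used here, reads of these genes in the overlap cannot be told apart. Lss, the cyclase that makes lanosterol (chromosome 10, 76531588 to 76557138, plus strand), had 20.9, 27.1, 25.0 and 28.6 CPM in Estrogen, against 20.8, 20.8, 24.3 and 27.0 CPM in Vehicle. In Lss the groups overlapped over most of their range (log2 difference 0.13, -0.17 to 0.43).

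The other 7 genes of this arm had log2 differences from -0.08 to 0.05. Sqle, the oxygen-using epoxidase that limits flux through this arm, had 54.4 ± 2.75 CPM in Estrogen and 57.0 ± 8.82 CPM in Vehicle, a log2 difference of -0.07 (-0.34 to 0.20). Hsd17b7, a ketosteroid reductase of the pathway that also makes estradiol from estrone, varied 1.12-fold over the 8 libraries. It stood at 19.2 ± 0.876 CPM in Estrogen and 18.6 ± 0.311 CPM in Vehicle (SD, n = 4 each), a log2 difference of 0.05 (-0.16 to 0.26). Msmo1 and Nsdhl, which remove methyl groups, had log2 differences of -0.03 (-0.27 to 0.21) for Msmo1 and -0.05 (-0.34 to 0.23) for Nsdhl. The sterol isomerase Ebp was at -0.08 (-0.32 to 0.16), the desaturase Sc5d at 0.02 (-0.20 to 0.24) and the reductase Dhcr7 at 0.04 (-0.16 to 0.23).

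**Figure D2:**
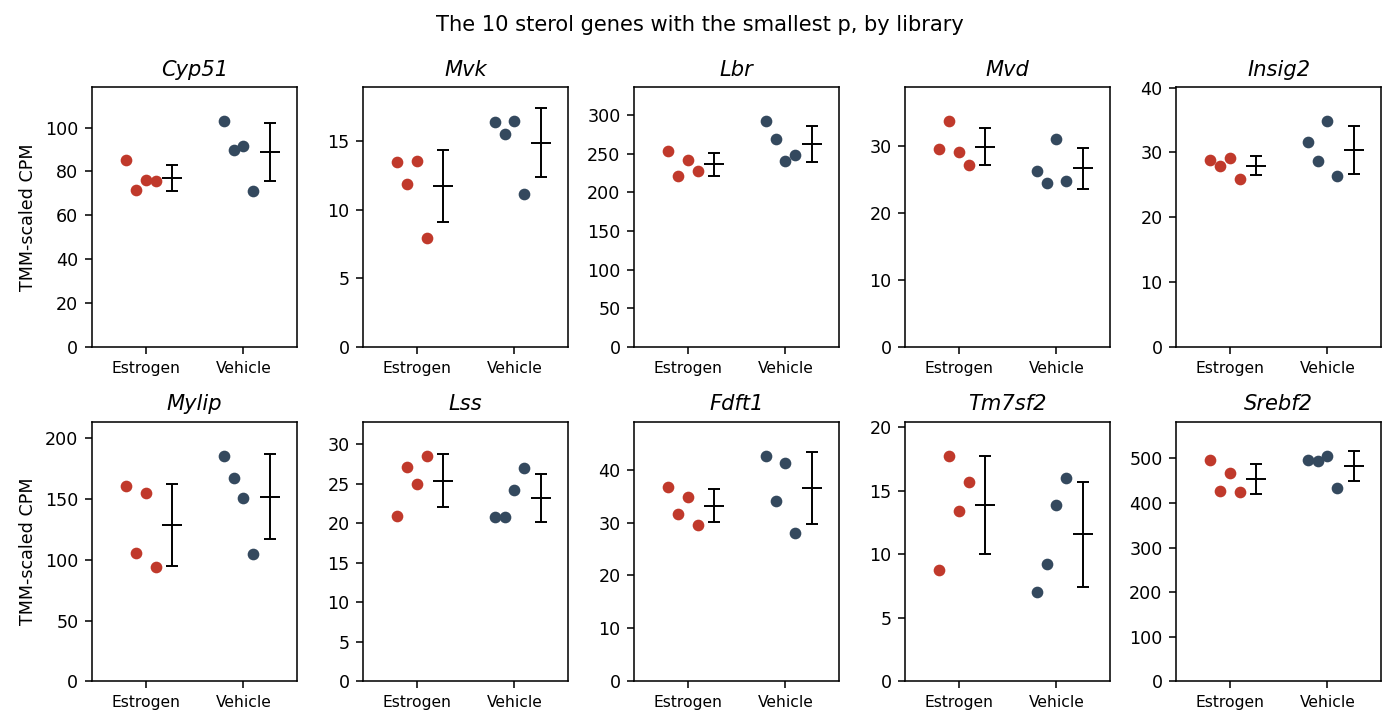
TMM-scaled CPM (y axis, from 0) of the 10 sterol genes with the smallest p in each Estrogen library (red points, left) and each Vehicle library (dark points, right), replicates 1 to 4 from left to right; black bars are mean ± SD of 4 libraries. The groups overlap in all 10 genes, and Vehicle 4 is the lowest Vehicle library in Cyp51, Mvk, Insig2, Mylip, Fdft1 and Srebf2.

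The intervals of all 5 SREBP control genes lay within 1.5-fold. Srebf2 (chromosome 15, 82147181 to 82205379, plus strand) was the most abundant of the 29, at 63.2 CPM per 1000 exon bases in Estrogen and 67.1 in Vehicle. It had 496, 427, 466 and 425 CPM in Estrogen, against 497, 493, 506 and 433 CPM in Vehicle. Vehicle 4 sat with Estrogen 2 and 4 at the low end, apart from the other 3 Vehicle libraries. The log2 difference was -0.09 (-0.31 to 0.14, adjusted p = 0.865 by edgeR).

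Srebf1, whose products serve fatty acid synthesis and, in part, sterol synthesis, had 91.2 ± 5.35 CPM in Estrogen and 94.5 ± 5.75 CPM in Vehicle (SD, n = 4 each; log2 difference -0.05, -0.23 to 0.13). Scap, the sterol sensor, varied only 1.11-fold over the 8 libraries and had a log2 difference of 0.00 (-0.17 to 0.17). Insig1, a sensitive SREBP target in other cells, had 122, 103, 108 and 107 CPM in Estrogen, against 123, 109, 114 and 102 CPM in Vehicle. The 2 groups covered the same range (log2 difference -0.03, -0.23 to 0.17). Insig2, the paralog that does not depend on SREBP (chromosome 1, 121304353 to 121332589, minus strand), had 28.9, 27.9, 29.1 and 25.9 CPM in Estrogen, against 31.6, 28.7, 34.8 and 26.3 CPM in Vehicle (log2 difference -0.12, -0.36 to 0.12).

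Among the transport and LXR genes the libraries spread more widely, with a median SD of log2 CPM within groups of 0.32, against 0.15 over the 29. Mylip, an LXR target that marks lipoprotein receptors for degradation (chromosome 13, 45389742 to 45412022, plus strand), had 161, 105, 155 and 94.5 CPM in Estrogen, against 186, 167, 151 and 105 CPM in Vehicle. Estrogen 2, Estrogen 4 and Vehicle 4 were low and the other 5 libraries high, and the log2 difference was -0.24 (-0.73 to 0.25). Abca1, the cholesterol exporter, had 12.7, 25.4, 16.5 and 31.5 CPM in Estrogen, against 13.1, 25.4, 14.9 and 19.4 CPM in Vehicle. These LXR targets therefore did not order the libraries alike, and Abca1 had a log2 difference of 0.24 (-0.43 to 0.91). Abcg1, the exporter that passes cholesterol to high-density lipoprotein, had a log2 difference of -0.01 (-0.45 to 0.43), Nr1h2, which encodes LXR beta, 0.08 (-0.16 to 0.33), and Stard4, a cytosolic sterol carrier, -0.10 (-0.35 to 0.15).

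Differences between libraries of the same group were larger than the difference between groups. The 19 enzymes summed to 965, 919, 936 and 928 CPM in Estrogen, against 1050, 966, 1026 and 875 CPM in Vehicle. Vehicle 4 was the lowest of the 8 libraries in 13 of the 29 genes, Vehicle 1 the highest in 10 and Vehicle 3 the highest in 8. Of all 15175 genes tested, Vehicle 4 was the lowest in 1691, Vehicle 1 the highest in 3337 and Vehicle 3 the highest in 1753. The median deviation of the 29 from their 8-library means (log2) was 0.04, -0.03, 0.01 and -0.05 in Estrogen 1 to 4, and 0.09, 0.05, 0.12 and -0.18 in Vehicle 1 to 4. The SD of log2 CPM was larger in Vehicle for 21 of 29 genes (72.4%) and for 10 of the 12 of the squalene and sterol arm, against 53.4% of all genes tested and 56.8% of those above 10 CPM. This difference in spread was not tested.

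**Figure D3:**
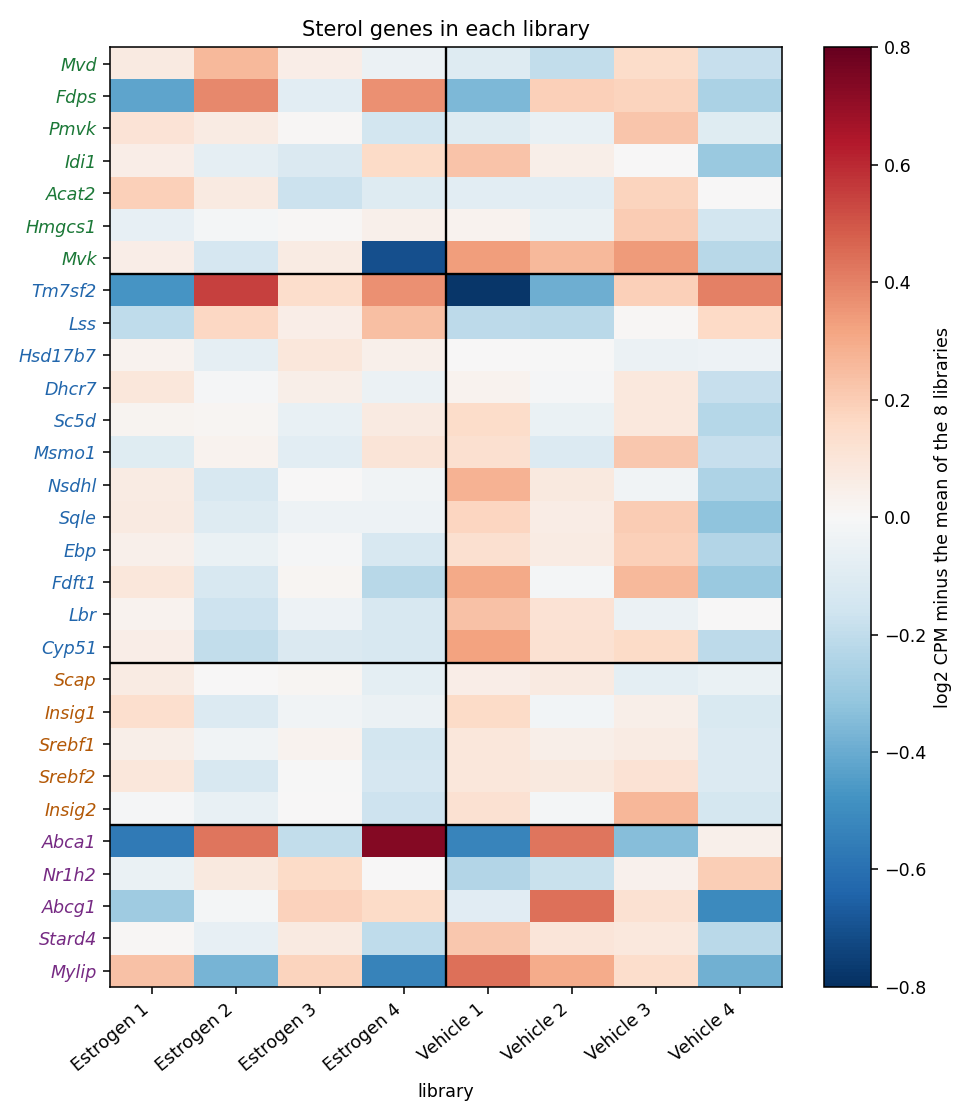
Log2 CPM of each sterol gene (rows, grouped by role) in each library (columns, Estrogen left of the line) as a deviation from the mean of its 8 libraries; red is above and blue below. Vehicle 4 is blue in most rows and Vehicle 1 and 3 are mostly red, while Tm7sf2, Lss, Abca1 and Nr1h2 are among those that follow another order.

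The branches beside the pathway were followed in lists of genes outside the 29, and 0 genes of these lists passed an adjusted p of 0.05 by edgeR. The isoprenoid branches (prenyl transferases, ubiquinone and dolichol synthesis) had 14 genes tested, 5 above and 9 below 0, a median log2 difference of -0.07 (-0.08 to -0.04 with each library left out in turn) and 0 genes at an unadjusted p under 0.05. Ggps1, which makes the geranylgeranyl donor, had 28.4 ± 1.97 CPM in Estrogen and 33.2 ± 5.51 CPM in Vehicle (log2 difference -0.22, -0.51 to 0.06). Genes of SREBP cleavage and sterol-regulated protein degradation had 3 above and 7 below 0 of 10, with a median of -0.05 and 1 at an unadjusted p under 0.05, where 3.53% of all genes tested were. The median was 0.01 without Vehicle 3 and -0.13 without Estrogen 1. That gene was Erlin2, a scaffold of the endoplasmic reticulum degradation machinery (59.4 ± 7.84 CPM in Estrogen and 49.1 ± 4.66 CPM in Vehicle, SD, n = 4 each; log2 difference 0.28, 0.02 to 0.54, adjusted p = 0.860 by edgeR). The count was 0 without Vehicle 1, 2 or 3 or Estrogen 2, 3 or 4, and 2 without Vehicle 4.

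Fatty acid and lipid synthesis had 13 genes tested, 8 above and 5 below 0, a median of 0.16 (leaving out Vehicle 3 gave 0.08) and 2 at an unadjusted p under 0.05, both desaturases. Fads2 had 28.0 ± 4.49 CPM in Estrogen and 21.1 ± 3.34 CPM in Vehicle (log2 difference 0.41, 0.07 to 0.75), and Fads1 had 34.6 ± 9.36 CPM in Estrogen and 25.2 ± 4.54 CPM in Vehicle (0.46, 0.00 to 0.91). The count at that level was 0 without Vehicle 1, Vehicle 3, Estrogen 2 or Estrogen 4, 1 without Vehicle 2, 4 without Estrogen 1 and 5 without Vehicle 4. Scd1, a desaturase and SREBP target, spread from 200 to 534 CPM in Estrogen, against 260 to 650 CPM in Vehicle, with a log2 difference of -0.54 (-1.32 to 0.23). LXR partners and targets had 6 above and 3 below 0 of 9 tested, a median of 0.16 and 0 genes at an unadjusted p under 0.05. That median was 0.02 without Estrogen 4, 0.08 without Estrogen 2 and 0.26 without Estrogen 1, and without Vehicle 3 it was 0.22. Leaving out Vehicle 3 put 2 genes of the list at an unadjusted p under 0.05, and leaving out Estrogen 1 put 3. Ch25h and Cyp7b1, which make and break down hydroxycholesterols, had too few reads to test, with 0 to 2 and 1 to 9 reads a library.

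Sterol uptake, trafficking and storage was the list beside the pathway whose fitted values lay furthest from 0. Of its 16 genes, 13 were above and 3 below 0, with a median log2 difference of 0.39, against -0.01 over all genes tested, and 3 were at an unadjusted p under 0.05, where 3.53% of all genes tested were. The median was 0.26 without Estrogen 2, 0.29 without Estrogen 4 and 0.52 without Estrogen 1. The 3 genes act in the lysosome or on cholesterol esters. Lipa, the lysosomal acid lipase, had 136, 310, 198 and 265 CPM in Estrogen, against 118, 163, 168 and 161 CPM in Vehicle. Npc1, which carries cholesterol out of the lysosome, had 106, 176, 122 and 173 CPM in Estrogen, against 79.7, 104, 92.3 and 139 CPM in Vehicle. Nceh1, a cholesterol ester hydrolase, had 68.5, 116, 81.0 and 120 CPM in Estrogen, against 53.9, 70.5, 69.4 and 81.4 CPM in Vehicle. In all 3 genes Estrogen 2 and Estrogen 4 were above the other libraries and the groups overlapped. Log2 differences were 0.58 for Lipa (0.05 to 1.10), 0.48 for Npc1 (0.01 to 0.95) and 0.48 for Nceh1 (0.05 to 0.92), each with an adjusted p of 0.860 by edgeR. Npc2, the most abundant gene of the list, had 412 ± 25.0 CPM in Estrogen and 419 ± 39.1 CPM in Vehicle.

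That count of 3 moved with single libraries, as the count over the whole table did. It was 1 without Vehicle 3 or Vehicle 2, 0 without Vehicle 1, Estrogen 2 or Estrogen 4, and 8 without Vehicle 4 or Estrogen 1. Over all genes tested the count was 535 with every library kept. It dropped to 227 once Estrogen 2 was left out, to 264 for Estrogen 4, to 258 for Vehicle 1, to 330 for Vehicle 2 and to 495 for Vehicle 3. Leaving out Estrogen 1 gave 1743 genes and leaving out Vehicle 4 gave 2156. Of the markers of other cells, those of monocytes and macrophages and of plasmacytoid dendritic cells were highest in Estrogen 2 and Estrogen 4 by median deviation. Neutrophil markers were not (median deviation 0.78 in Estrogen 2 and -0.60 in Estrogen 4). T and NK cell markers differed by measure. Their median deviation was -0.46 in Estrogen 2 and -0.45 in Estrogen 4, and also -0.41 in Estrogen 3 and -0.30 in Vehicle 3. Their summed level was 169 CPM in Estrogen 2 and 245 CPM in Estrogen 4, against 111 to 186 CPM in the other libraries. Cd8a, an abundant marker of that list, had 103 CPM in Estrogen 2 and 133 CPM in Estrogen 4, its highest values. The median deviation of the uptake list was -0.19, 0.52, 0.01 and 0.45 in Estrogen 1 to 4 and -0.50, -0.13, -0.13 and 0.12 in Vehicle 1 to 4. That of 14 monocyte and macrophage markers was -0.41, 0.53, 0.16 and 0.91 in Estrogen and -0.91, -0.11, -0.02 and -0.23 in Vehicle. Of these markers 12 of 14 were above 0 (median log2 difference 0.55, and 0.38 without Estrogen 4 to 0.75 without Estrogen 1), 5 were at an unadjusted p under 0.05 (4 higher and 1 lower), and their summed level was 1746 to 3384 CPM in Estrogen and 1786 to 2687 CPM in Vehicle. By that summed level, Estrogen 4 (2592 CPM) was below Estrogen 3 (2738 CPM) and Vehicle 3 (2687 CPM). Cd68 had 170 ± 42.2 CPM in Estrogen and 122 ± 17.1 CPM in Vehicle, and C1qa 33.7 ± 14.4 CPM in Estrogen and 18.5 ± 6.11 CPM in Vehicle. Lyz2, the most abundant, had 1512 ± 587 CPM in Estrogen and 1270 ± 331 CPM in Vehicle, while Ly6c2 was at 259 ± 47.2 CPM in Estrogen and 398 ± 114 CPM in Vehicle (SD, n = 4 each). None of the 14 was at 0. All 12 B lineage markers were below 0 (median -0.26, and -0.17 without Estrogen 2), with Cd79a, the most abundant, at 1847 ± 710 CPM in Estrogen and 2504 ± 713 CPM in Vehicle (SD, n = 4 each). The part of these cells in the uptake values was not tested, and in bulk libraries fewer cells of a type and less RNA per cell cannot be told apart.

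Other marker lists gave the following beside the 29. Immature and mature B cell markers were all below 0 (8 of 8, median -0.48, and -0.33 without Vehicle 2 to -0.60 without Estrogen 1), with Fcer2a at 35.2 ± 7.81 CPM in Estrogen and 70.4 ± 26.9 CPM in Vehicle. Pro-B and pre-B markers had 4 of 7 above 0 (median 0.05), plasmacytoid dendritic cell markers 5 of 6 (median 0.32), T and NK cell markers 2 of 9 (median -0.76) and cycling cell genes 4 of 16 (median -0.07). With each library left out in turn, these medians ranged from -0.10 (without Estrogen 1) to 0.16 (without Vehicle 2), from 0.18 (without Estrogen 4) to 0.47 (without Vehicle 4), from -0.99 (without Vehicle 3) to -0.62 (without Vehicle 1) and from -0.15 (without Estrogen 4) to -0.0019 (without Vehicle 2). Among the T and NK cell markers, Cd3d, Cd3e, Cd3g and Klrb1c had only 5 to 31 reads a library. With at least 1 CPM required in 4 libraries, 4 of the 9 remained, 2 of them above 0, with a median of -0.23. Neutrophil markers had 5 of 9 above 0 (median 0.02), but 7 of 9 without Vehicle 3 (median 0.51) and 2 of 9 without Estrogen 2 (median -0.28). Erythroid markers had 4 of 5 above 0 (median 0.24), but 0 of 5 without Estrogen 4 (median -0.56). By edgeR 0 genes of these lists passed an adjusted p of 0.05, and 2 immature and mature B, 2 T and NK cell and 2 plasmacytoid dendritic cell markers were at an unadjusted p under 0.05, where 3.53% of all genes tested were. The 19 sterol enzymes had a median log2 difference of 0.00, with library medians from -0.19 to 0.17.

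**Figure D4:**
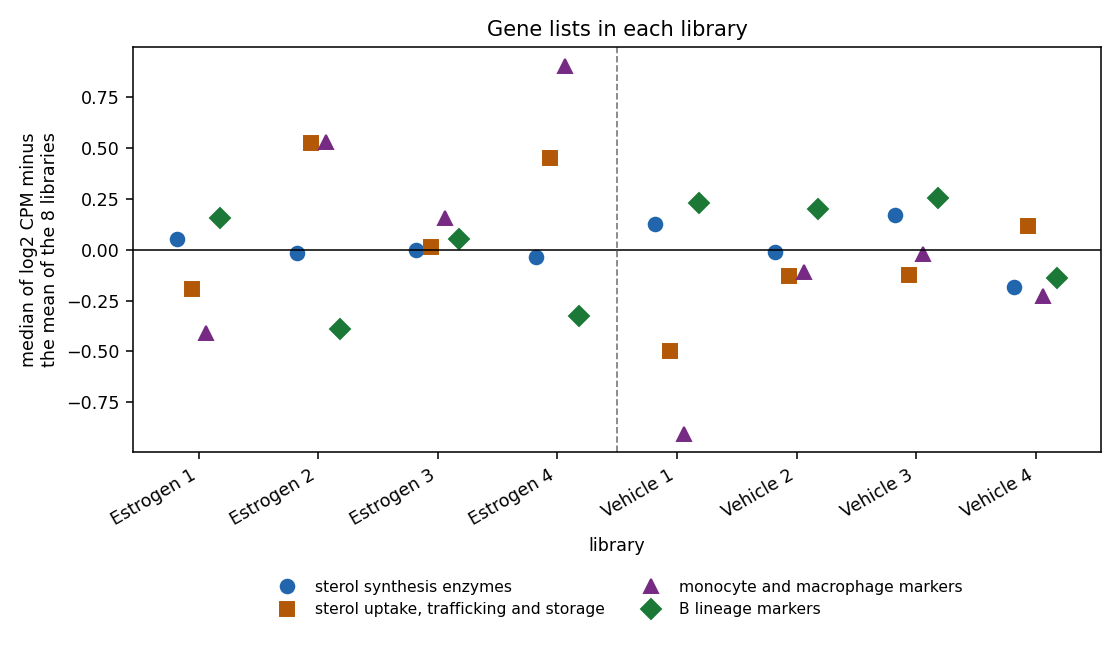
Median deviation of log2 CPM from the 8-library mean (y axis) for 4 gene lists in each library (x axis, Estrogen left of the dashed line). The sterol enzymes (circles) stay between -0.19 and 0.17, the uptake genes (squares) and monocyte and macrophage markers (triangles) are highest in Estrogen 2 and 4, and the B lineage markers (diamonds) are lowest there.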

How the data were processed

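The authors deposited raw read counts per Ensembl gene for 8 libraries, without normalization. The submitters' notes name CASAVA, Bowtie 0.12.2 and mm10; which counter, annotation and strand setting were used, and how reads matching several genes were handled, is not given in the sources used here. GENCODE M21 named 46488 of 46983 identifiers. In R 4.3.3, edgeR 4.0.16 filtered genes (filterByExpr), scaled by TMM, fitted with robust dispersions and compared Estrogen with Vehicle (two-sided quasi-likelihood F-test, Benjamini-Hochberg over 15175 genes, threshold 0.05); the biological coefficient of variation was 22.7%. Deviations used log2 CPM with a prior count of 2. Shared sequence is the share of 50-base transcript windows found in other genes. Values by library are given for the 10 members with the smallest p; other lists give at most the 3 smallest p and the most abundant gene, and further genes (Hmgcs1, Insig1, Abca1 and others of the 29) were added after their values were seen. Members and lists were chosen with earlier results of these data known. Other settings used DESeq2 1.42.0, limma 3.58.1, other scalings and filters, a replicate block and each library left out. The fit was tested on simulated data. Figures used Python 3.11.15 and matplotlib 3.10.9.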

Additional observations from a re-analysis of the deposited data

Results flagged for a closer look

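In 2 of the 58 groups of 4 libraries (29 genes in Estrogen and in Vehicle) a library lay apart from the other 3 by more than Dixon's 95% limit of 0.829 of the range; chance alone flags about 1 group in 20. Pmvk had 38.1 CPM in Vehicle 3, above 30.3 to 31.3 CPM in the other Vehicle libraries (gap 0.867 of the range). Srebf2 had 433 CPM in Vehicle 4, below 493 to 506 CPM in the other Vehicle libraries (gap 0.831 of the range).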

How the results depend on the processing

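No sterol gene was called under any of 16 other settings or at a threshold of 0.1 (lowest adjusted p 0.261). Of 464 values, 424 kept their direction and 40, in 13 genes with a main log2 difference of at most 0.07, did not. Library totals gave 0.0476 for Acat2, 0.0352 for Hmgcs1, 0.0251 for Msmo1 and for Insig1, 0.0014 for Nsdhl, 0.0017 for Srebf1 and 0.0468 for Abcg1, with 19 of 29 genes above 0. Acat2 was also above 0 with DESeq2 size factors (0.0040), no filter (0.0073), 1 CPM in 4 libraries (0.0060) and the DESeq2 test (0.0037), and Abcg1 with limma-voom (0.0122). Leaving out each library gave -0.071 to 0.073 for Acat2, -0.067 to 0.061 for Hmgcs1, -0.022 to 0.11 for Pmvk, -0.085 to 0.10 for Idi1, -0.17 to 0.0002 for Sqle, -0.093 to 0.052 for Msmo1, -0.13 to 0.055 for Nsdhl, -0.044 to 0.092 for Sc5d, -0.012 to 0.085 for Dhcr7, -0.021 to 0.041 for Scap, -0.082 to 0.039 for Insig1 and -0.15 to 0.17 for Abcg1. It left 0 to 2 sterol genes at an unadjusted p under 0.05, and 227 (without Estrogen 2) to 2156 (without Vehicle 4) of all genes. With no filter 936 genes of the table were at that level. At an adjusted p of 0.05 the DESeq2 test called 1 gene (Cd8b1). Same-numbered libraries did not all deviate together (correlations 0.674, -0.131, 0.0798 and 0.554 for numbers 1 to 4). Estrogen 1 correlated best with Vehicle 1, and Estrogen 4 with Vehicle 4. The other Estrogen libraries correlated best with a Vehicle library of a different number (0.398 and 0.159). The libraries of number 3 did not come from the same mouse. Vehicle 3 had the pattern of male cells and Estrogen 3 that of female cells (Xist at 2.39 and 759 CPM). A block by number still puts these libraries together. Whether libraries of the other numbers share an origin was not tested. With the number as a replicate block, 1 gene was called (Tgm2), 2175 were at an unadjusted p under 0.05, and 2 of them were sterol genes (Mvk and Cyp51); Abcg1 was at 0.0137. The cause of these changes was not tested. The depth limits Fdps most, at 40 to 84 reads a library.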
